A study of Mus musculus with 4 samples.

Results

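The enzymes described here make NADPH, the cell's main reducing cofactor for antioxidant defence and lipid synthesis, through the pentose phosphate pathway and a few other dehydrogenases. Their transcripts were compared between spleens of female Nrf2 knockout mice (nrf2 -/-), which lack a transcription factor of antioxidant defence, and those of wild-type (nrf2 +/+) littermates, all 5 months old and untreated as far as the labels say. The set was fixed as 10 genes by symbol, G6pdx, Pgls, Pgd, H6pd, Rpia, Tkt, Taldo1, Me1, Idh1 and Idh2. The 396 probe sets annotated to several genes were not searched. The set took every probe set of the array whose platform annotation names one of these genes and no other. That gave 10 probe sets for 9 genes, among 12422 probe sets and 8251 singly named genes in all. No probe set was listed under G6pdx, the gene of the pathway's first and rate-limiting enzyme, so it was not analysed here.

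There were 4 expression arrays of total RNA, 2 per genotype. Both genotypes came from matings between heterozygotes, whose knockout ancestors were of a C57B6/129SVJ background and whose wild-type ancestors were of C57B6/SJL, so strain alleles could differ between the animals. The labels name no tissue-specific driver for the knockout, and they place the age before severe autoimmune disease. Whether each array received RNA from a single animal or from several is not stated in them, so the p-values rest on the spread among these samples alone, and that spread may be technical. Values are array intensities on a linear scale with no unit, and an intensity of 1 probe set cannot be set against that of another. In whole spleen, fewer cells of a type and less RNA per cell cannot be told apart.

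In the pathway's oxidative branch, glucose 6-phosphate is oxidised to a lactone (G6pdx), the lactone is hydrolysed (Pgls) and the product is oxidised again with loss of CO2 (Pgd), which yields NADPH at both oxidations and ribulose 5-phosphate at the end. The non-oxidative branch (Rpia, Tkt, Taldo1) turns these pentoses into ribose for nucleotides or back into glycolytic sugars. Malic enzyme (Me1) and the NADP-dependent isocitrate dehydrogenases (Idh1, Idh2) are separate sources of NADPH. Several of these genes, among them G6pdx, Pgd, Tkt, Taldo1, Me1 and Idh1, are known in other tissues as genes that Nrf2 can induce. Nrf2 binds with small Maf proteins to antioxidant response elements, short DNA motifs with the core TGANNNNGC.

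Promoter windows from RefSeq (GRCm38.p6) show which members carry that core near a transcription start. Searching both strands of windows from 250 bases before to 50 bases after each annotated start, 7 of the 10 member genes had a match in at least 1 window, against 45.0% of all 27025 genes with such a window. By windows it was 7 of 13, against 41.3% of all 32851 windows. The stretches below run from 110 bases before the start to the first 10 bases of the gene, written along the gene's own strand with matches in capitals. Me1, Tkt and Idh1 are shown as measured members with a match in this stretch, and Pgls because it was the member whose genotypes did not overlap.
Me1 (chr9:86695905-86696024, minus strand): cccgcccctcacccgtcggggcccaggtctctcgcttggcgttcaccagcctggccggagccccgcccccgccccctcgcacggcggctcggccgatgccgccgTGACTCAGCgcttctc
Tkt (chr14:30549021-30549140, plus strand): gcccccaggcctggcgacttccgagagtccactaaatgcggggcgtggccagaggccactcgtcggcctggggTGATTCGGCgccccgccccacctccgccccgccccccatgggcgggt
Idh1 (chr1:65186470-65186589, minus strand): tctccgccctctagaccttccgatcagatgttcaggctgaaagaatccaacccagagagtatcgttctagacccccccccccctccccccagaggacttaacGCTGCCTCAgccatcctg
Pgls (chr8:71592074-71592193, plus strand): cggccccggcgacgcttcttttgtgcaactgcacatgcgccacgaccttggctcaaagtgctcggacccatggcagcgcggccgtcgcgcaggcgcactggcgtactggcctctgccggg
In Me1 the match begins 6 bases before the start and runs across it, and in Tkt it begins 37 bases before. In Idh1 it begins 8 bases before the start and reaches the first base of the gene. It lies on the opposite strand, so that the capitals read as its reverse complement. Me1 and Idh1 each had another annotated start, and the windows there held no match. Taldo1, Idh2 and G6pdx had a match farther upstream, beginning 221, 142 and 57 bases before the start, and Pgd had one beginning 3 bases after its second annotated start. Pgls, H6pd and Rpia had none in their windows. A match is a run of letters and was not tested as a binding site, and the absence of one covers only these windows.

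The genotype labels and the arrays were checked before the members were read. Nfe2l2, which encodes Nrf2, read 202 and 178.6 in the knockout arrays and 3537 and 6321 in the wild-type arrays. It was among the probe sets called lower in knockout (adjusted p = 0.0226 by limma), so the values separate the arrays as labelled. Whether that probe set lies in the altered part of the gene is not stated. Wild-type replicate 1 stood apart, with a correlation across tested probe sets between 0.845 and 0.848 with the other arrays, which correlated with each other at 0.936 to 0.946. The Gapdh control's 3' signal exceeded its 5' signal, a sign of how complete the labelled RNA is, by a factor of 88.3 in that array and by 8.07 to 34.8 in the others. By the beta-actin control that array did not stand apart, with a factor of 14.4 against 19.3 and 16.1 in the knockout arrays and 8.86 in wild-type replicate 2. Both controls gave a factor of at least 8.07 in every array. Markers of B cells (8 genes measured) and T cells (8) were measured in every array, and no marker gene of either list was below the floor of 185.5 in all 4 arrays. Markers of exocrine pancreas, which lies beside the spleen, were measured too.

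None of the 10 probe sets passed the test between genotypes. The fit covered 7452 probe sets bright enough to test, of which 0.0537% (4, all lower in knockout) had an adjusted p under 0.05 by limma with Benjamini-Hochberg adjustment. That count was 11 without knockout replicate 1 and 12 without knockout replicate 2, and held 0 members each time. At an unadjusted p under 0.05 the members held 1 probe set, that of Pgls, against 1.78% of all tested. Knockout spleen was on the lower side for 4 of the 10 probe sets and on the higher side for 6, where 46.5% of all tested probe sets were on the lower side. Their median difference was 0.08 on the log2 scale, against 0.04 over all tested probe sets, and single differences ran from -0.91 to 0.63. All 10 lay above the floor in every array. Their lowest value, 697.8, was also above the brightness filter's cut of 503.2, so none passed it through 1 genotype alone.

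**Figure D1:**
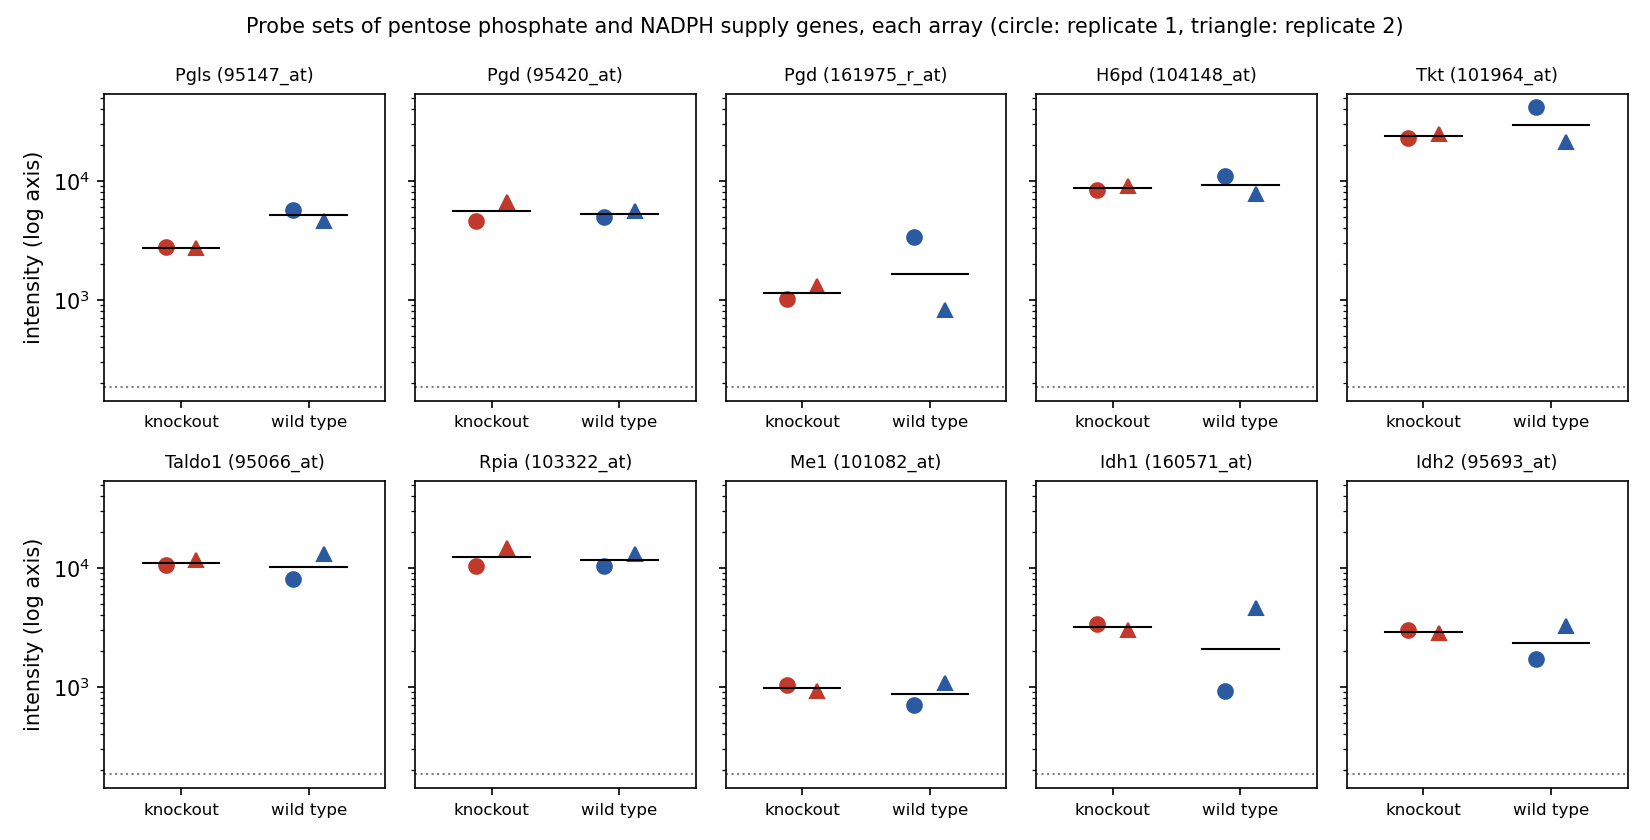
Intensity of each member probe set in each array, on a log axis, with knockout in red and wild type in blue, replicate 1 as a circle and replicate 2 as a triangle; the bar is the geometric mean of each genotype and the dotted line the floor of 185.5. Pgls is the panel in which both knockout arrays lie below both wild-type arrays, while in the other 9 the genotypes overlap.

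In the oxidative branch, Pgls was the one member whose genotypes did not overlap. The gene encodes the lactonase between the NADPH-yielding steps, and its probe set (95147_at) read 2803 and 2706 in the knockout arrays against 5742 and 4636 in the wild-type arrays. Both knockout values were close together, and each lay well below the lower wild-type value. On the log2 scale knockout minus wild type was -0.91 (SE 0.39, n = 2 per group), with a 95% confidence interval from -1.80 to -0.01, which puts knockout spleen at 0.534 of the wild-type level. The limma p was 0.0477 before adjustment and 0.992 after it. A larger difference in either direction was found for 7.84% of tested probe sets, and 26.5% of them (12.2% with knockout lower) had genotypes that did not overlap, so 1 of 10 is no more than the background share.

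Because its genotypes did not overlap, the Pgls difference was bound to keep its direction whichever array was left out. It ran from -1.06 without wild-type replicate 2 to -0.75 without wild-type replicate 1, with adjusted p from 0.0991 to 1. Without knockout replicate 1 or 2 its unadjusted limma p was 0.238 and 0.265. Measured against each wild-type array alone, the knockout mean was 0.480 of replicate 1 and 0.594 of replicate 2. Marker lists of other cell types were also lower in both knockout arrays. For exocrine pancreas (10 genes) the summed intensity was 10710 and 11670 in knockout and 83910 and 22440 in wild type, and 7 of its 9 tested probe sets had knockout below wild type without overlap. For T cells the sums were 32500 and 26670 against 50070 and 36690, with 4 of 7 tested probe sets lower without overlap. For B cells they were 170300 and 146900 against 320600 and 171100, with 6 of 10 lower without overlap. The B cell sum in knockout replicate 1 was thus nearly equal to that in wild-type replicate 2. The part of these cells in the Pgls result was not tested.

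Pgd, which encodes the second NADPH-yielding dehydrogenase of the branch, was measured by a pair of probe sets that did not follow each other. The first (95420_at) had intensities of 4631 and 6659 in knockout and 4963 and 5619 in wild-type spleen, so the wild-type values lay between the knockout values. Its difference was 0.07 (SE 0.41, 95% confidence interval -0.87 to 1.02, adjusted p = 0.996 by limma). The other (161975_r_at), whose suffix marks a probe set designed under relaxed rules, read 1023 and 1301 against 3365 and 825. There wild-type replicate 1 was 4.08-fold above wild-type replicate 2, and the knockout values fell between them, with a difference of -0.53 (SE 0.65, adjusted p = 0.992). On the first probe set wild-type replicate 1 was slightly below replicate 2, so the excess in that array was seen by 1 of the Pgd probe sets.

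H6pd encodes the enzyme that carries out the first reactions of the same branch inside the endoplasmic reticulum, where its NADPH serves steroid reduction. Its intensity was 8454 and 9041 in knockout spleen, and 10994 and 7736 in wild-type spleen. The knockout values lay between the wild-type values, and the difference was -0.08 (SE 0.41, 95% confidence interval -1.04 to 0.88). That interval runs from 0.488 to 1.84 of the wild-type level, which leaves room for a difference of close to 2-fold either way.

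The non-oxidative branch showed overlapping genotypes for each of its 3 genes. Tkt, the transketolase that moves carbon units between sugars, measured 22972 and 24850 in the knockout arrays, with 41430 and 21313 in the wild-type arrays. Wild-type replicate 1 was 1.67-fold above the next array and the other 3 arrays lay close together. The difference was -0.31 (SE 0.48, 95% confidence interval -1.42 to 0.79, adjusted p = 0.992). Tkt, H6pd and the second Pgd probe set ranked the arrays alike, with wild-type replicate 1 highest, then knockout replicates 2 and 1, then wild-type replicate 2. Of the neutrophil markers (11 genes, 13 tested probe sets), 12 probe sets were likewise lowest in wild-type replicate 2, but 3 were highest in wild-type replicate 1. All 13 measured higher in knockout, 8 without overlap (14.2% of all tested probe sets were higher without overlap). Their summed intensity, led by S100a8 and S100a9, was 503200 and 566800 in knockout and 707700 and 172500 in wild type, and their part in these values was not tested.

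Taldo1, the transaldolase that works beside transketolase, went the other way in the same array. Its intensity was 10600 and 11629 in knockout spleen, and 8090 and 13041 in wild-type spleen, with wild-type replicate 1 lowest and wild-type replicate 2 highest. The difference was 0.11 (SE 0.43, 95% confidence interval -0.89 to 1.12). Summed macrophage markers (8 genes) were also lowest in wild-type replicate 1, at 84750, and between 107700 and 125400 in the other arrays. Of their 10 tested probe sets 6 were lowest there, and their part was not tested.

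Rpia, the isomerase that makes ribose 5-phosphate for nucleotide synthesis, had intensities of 10406 and 14722 in knockout and 10452 and 13025 in wild-type spleen. Replicate 1 of each genotype was low and replicate 2 high, and the difference was 0.09 (SE 0.42, 95% confidence interval -0.90 to 1.07). Rpia and the first Pgd probe set were the members lowest in knockout replicate 1, at 1.42-fold and 1.44-fold below knockout replicate 2. Summed markers of dividing cells (10 genes) read 68320 in knockout replicate 1 and from 113400 to 143300 in the other arrays, and those of erythroid cells (10 genes) 176700 against 257800 to 481800. Knockout replicate 1 was the lowest array for 9 of 12 tested probe sets of the first list and 12 of 13 of the second. In wild-type replicate 1, where Rpia was as low as in knockout replicate 1, these sums were 127000 and 481800. The part of either cell type in the Rpia and Pgd values was not tested.

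Among the NADP-dependent dehydrogenases outside the pathway, wild-type replicate 1 was the lowest array for all 3 genes, as it was for Taldo1. Idh1, the cytosolic and peroxisomal isocitrate dehydrogenase, measured 3411 and 3016 in the knockout arrays, with 925.2 and 4647 in the wild-type arrays. The wild-type arrays were 5.02-fold apart, the widest gap of any member, and the knockout values lay between them. The difference was 0.63 (SE 0.70, 95% confidence interval -0.99 to 2.25, adjusted p = 0.992 by limma).

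Idh2, its mitochondrial counterpart, had intensities of 3014 and 2823 in knockout and 1706 and 3248 in wild-type spleen. The pattern was that of Idh1 with a smaller gap, and the difference was 0.31 (SE 0.44, 95% confidence interval -0.71 to 1.33). Me1, the cytosolic malic enzyme, read 1029 and 922.8 against 697.8 and 1072. Its difference was 0.17 (SE 0.46, 95% confidence interval -0.88 to 1.23). This gene, whose match to the Nrf2 motif runs across an annotated start, thus had overlapping genotypes. Its interval runs from 0.542 to 2.34 of the wild-type level.

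**Figure D2:**
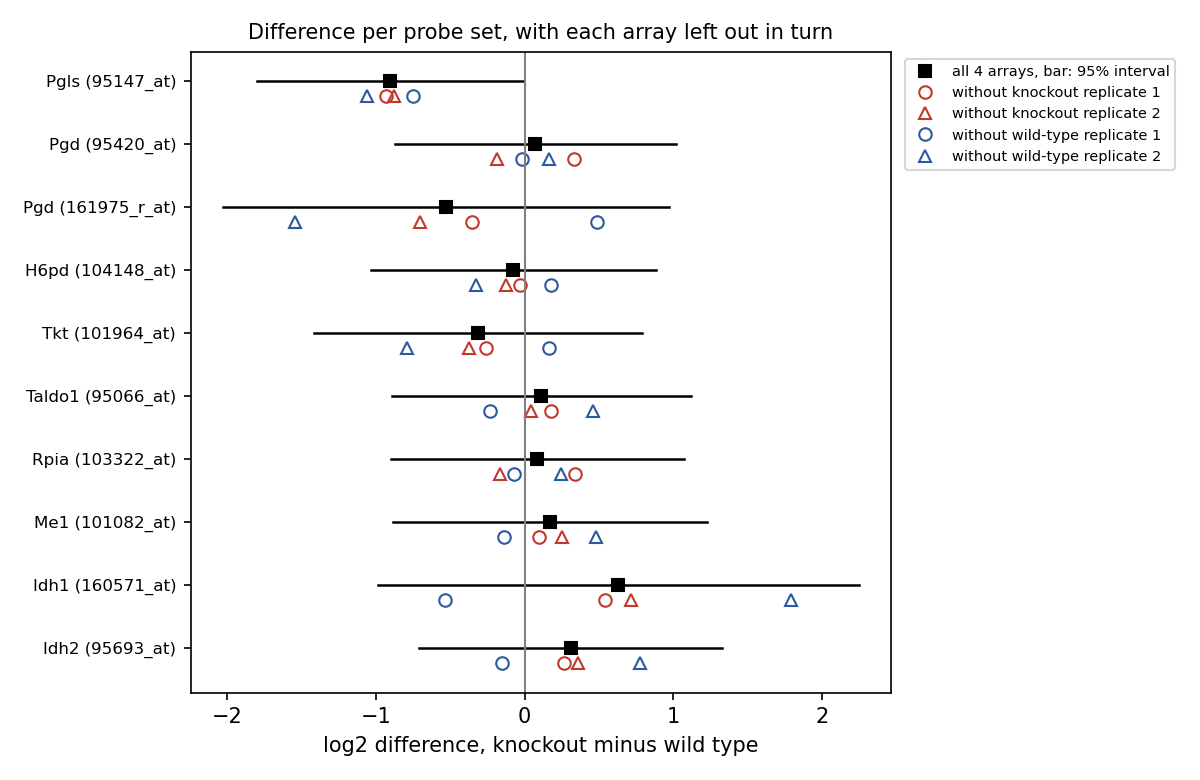
Difference between knockout and wild type on the log2 scale for each member probe set, as a black square with its 95% confidence interval from all 4 arrays, and as open symbols with 1 array left out (red for a knockout array, blue for a wild-type array). The Pgls symbols all lie below 0, from -1.06 to -0.75, as they must where genotypes do not overlap. For the other 9 probe sets the estimate without wild-type replicate 1 lies on the other side of 0 from the square.

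For 9 of the 10 probe sets the direction of the difference turned on wild-type replicate 1. Knockout arrays differed from each other by 1.04-fold to 1.44-fold over the members (median 1.11-fold), and wild-type arrays by 1.13-fold to 5.02-fold (median 1.57-fold). Over all tested probe sets, 7.68% were more than 2-fold apart between the knockout arrays, which no member was. Between the wild-type arrays 29.1% were, as were 2 of the 10 members, Idh1 and the second Pgd probe set. Wild-type replicate 1 lay outside the range of the other 3 arrays for 8 of 10 members, highest for 4 and lowest for 4, and 76.7% of all tested probe sets had that array outermost.

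Without wild-type replicate 1 the differences were -0.53 for Idh1, -0.23 for Taldo1, -0.16 for Idh2, -0.14 for Me1, -0.07 for Rpia, -0.02 and 0.48 for the Pgd probe sets, 0.16 for Tkt and 0.18 for H6pd. Each had the opposite sign with all 4 arrays. Over all probe sets tested in both fits, 38.4% changed sign, against 12.3% to 14.9% when another array was left out. Pgls was then at -0.75 (unadjusted p = 0.0485 and adjusted p = 1 by limma). In that fit 7 of the 10 members measured lower in knockout. Without wild-type replicate 2, the array lowest in both the Gapdh and the beta-actin factor, Idh1 was at 1.79 (adjusted p = 0.0645) and the second Pgd probe set at -1.54 (adjusted p = 0.0788), so neither passed.

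**Figure D3:**
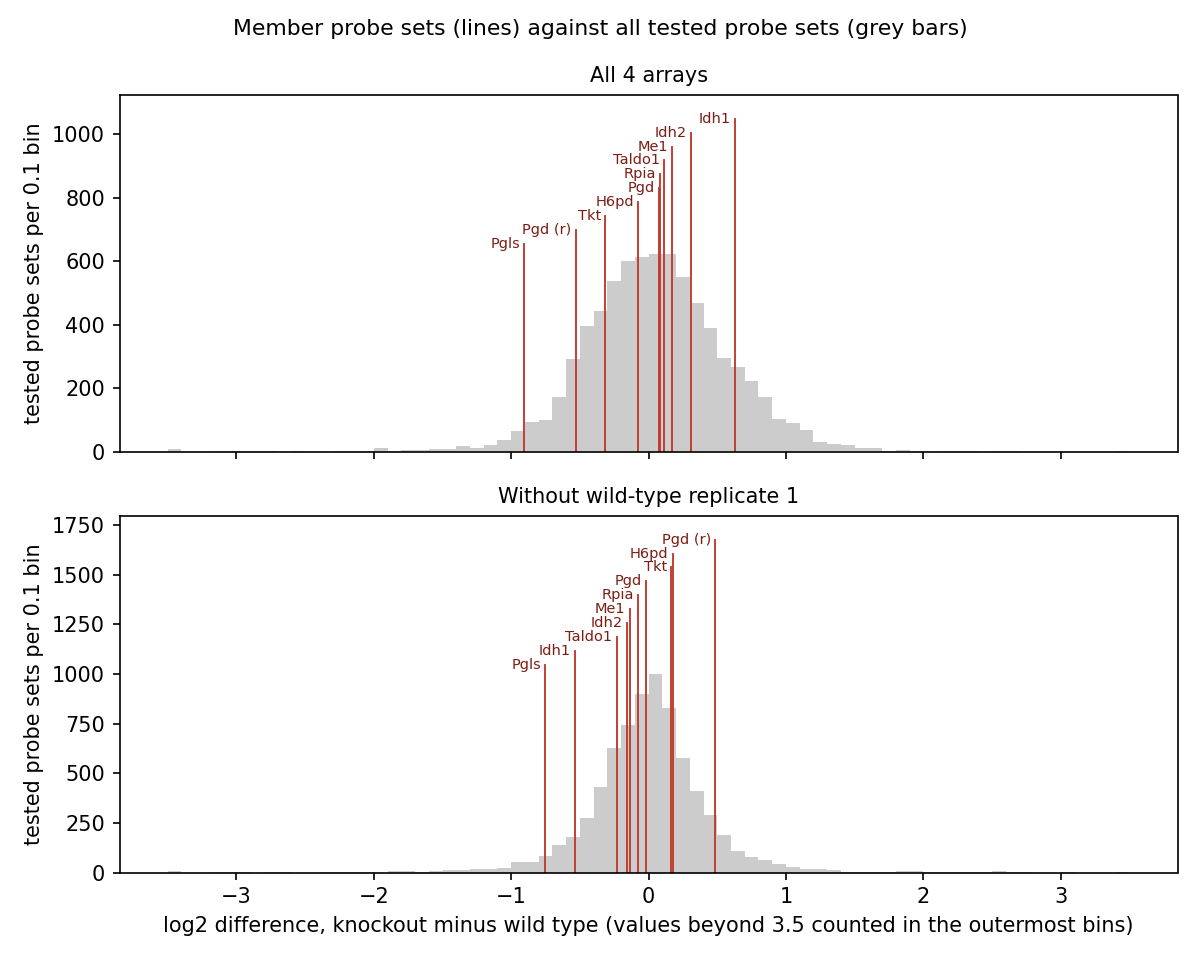
Number of tested probe sets in bins of 0.1 of the log2 difference (grey bars), with the member probe sets as red lines whose heights only make room for the names, from all 4 arrays (top) and without wild-type replicate 1 (bottom); "Pgd (r)" is 161975_r_at. The members lie within the bulk of all probe sets in both, with Pgls leftmost at -0.91 and -0.75 and Idh1 moving from 0.63 to -0.53.

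Genes next to the pathway gave no call either. The 3 lists written for this comparison had 21 tested probe sets, of which 0 passed by limma over all probe sets and 0 had an unadjusted p under 0.05. Of the ribose and hexose phosphate genes, 9 of 14 were measured and 5 probe sets tested, 2 higher and 3 lower (median -0.04). Prps1, which makes the activated ribose of nucleotides, measured 3468 and 5545 in the knockout arrays, with 1104 and 5226 in the wild-type arrays (log2 0.87, SE 0.70). Hk1, the hexokinase that supplies glucose 6-phosphate, read 73282 and 74935 against 138711 and 82012 (log2 -0.53, SE 0.47). In Hk1 both knockout values were below both wild-type values, and the excess in wild-type replicate 1 was larger than the gap between genotypes.

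The list of other NADP and NADPH supply genes also held genes of NAD-dependent enzymes (Idh3a, Idh3g, Mdh1) and of a chiefly NAD-dependent enzyme (Mthfd2). A citrate carrier (Slc25a1) and ATP citrate lyase (Acly), which makes no NADPH, were in it too. Its counts therefore do not describe NADPH supply alone. Of this list, 9 of 16 genes were measured and 9 probe sets tested, 8 higher and 1 lower (median 0.24). Without wild-type replicate 1 this became 5 higher and 4 lower. The one that measured lower, a subunit gene of the NAD-dependent isocitrate dehydrogenase, Idh3g, had intensities of 8069 and 10323 in knockout and 18378 and 14586 in wild-type spleen without overlap (log2 -0.84, SE 0.42, unadjusted p = 0.0783 and adjusted p = 0.992 by limma). Nnt, the mitochondrial transhydrogenase that makes NADPH from NADH, read 1232 and 1272 in knockout and 61.1 and 1110 in wild type, so wild-type replicate 1 stood apart from the other 3 arrays, and the difference was 1.46 (SE 0.80).

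Of the list of NADPH users, 10 of 15 genes were measured and 7 probe sets tested, 2 higher and 5 lower (median -0.01). That list also held Tbxas1, the thromboxane synthase gene, whose enzyme does not use NADPH. It was among those that measured higher (log2 0.07, SE 0.39), so these counts do not describe NADPH users alone. The mitochondrial thioredoxin reductase gene Txnrd2 measured 690.5 and 1594 in the knockout arrays, with 2651 and 1550 in the wild-type arrays (log2 -0.95, SE 0.53). Its cytosolic counterpart Txnrd1 read 2378 and 3158 against 1408 and 2838 (log2 0.46, SE 0.46). Both had overlapping genotypes, and Gsr, the glutathione reductase gene, which was chosen after its values were seen, differed by -0.01 (SE 0.38).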

How the data were processed

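The deposited values are 1-colour array intensities on a linear scale, 1 per probe set; which software and scaling the authors applied is not given in the labels or the file. The 2% trimmed means of the deposited arrays were nearly equal (2501.5 to 2502.0), so no scaling was added. The 66 control probe sets were left out. Values below the pooled 25th percentile, 185.5, were raised to it and log2 was taken; a difference on this scale understates that of dim genes. The 7452 probe sets with a mean above the 40th percentile of means (503.2) were tested with limma 3.58.1 in R 4.3.3 (lmFit, eBayes with an intensity trend), two-sided, with Benjamini-Hochberg adjustment at 0.05. Marker sums take the brightest probe set of each gene.

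Gene symbols came from the platform annotation, updated by gene identifier (10817 of 10833 matched). All member probe sets are named, and from each neighbouring list the 2 genes with the smallest p. The members and lists were chosen with earlier results of these data known. The replicate numbers are not said to pair samples. Alternatives covered scaling, floor, filter, variance model, array weights, replicate block and each array left out. The fit was checked on simulated data with the same spread in every array and no floor or filter. That check therefore does not cover an outlying array.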

Additional observations from a re-analysis of the deposited data

How the results depend on the processing

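Precision is limited by 2 arrays per genotype (median standard error 0.46 on the log2 scale), and no detection calls or probe-level data were used here. The count of member probe sets called was 0 under each alternative except an unadjusted p, where it was 1, and the 21 neighbouring probe sets gave 0 throughout. The count over all probe sets, 4, became 0 without the brightness filter (12422 tested) and 133 at an unadjusted p. With the replicate number as a block it was 36, with 0 members; the labels do not pair samples by number, and deviations of same-numbered arrays correlated at 0.04. With 1 array left out it ran from 3 to 12, with 11 and 12 without knockout replicates 1 and 2, and the lone array of a genotype is then assumed to vary like the others.

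With 1 array left out, differences ran from -0.33 to 0.18 for H6pd, -0.53 to 1.79 for Idh1, -0.16 to 0.77 for Idh2, -0.14 to 0.48 for Me1, -1.54 to 0.48 for Pgd (161975_r_at), -0.19 to 0.33 for Pgd (95420_at), -1.06 to -0.75 for Pgls, -0.17 to 0.34 for Rpia, -0.23 to 0.46 for Taldo1 and -0.79 to 0.16 for Tkt. Beside the 9 sign changes without wild-type replicate 1, Pgd (95420_at) and Rpia changed sign without knockout replicate 2, to -0.19 and -0.17. Under the 9 alternatives of scaling, floor, filter, variance model, weights and block no member changed sign. Only other scaling and a pseudocount in place of the floor altered the member differences at all. The rest left them unchanged and say nothing about the sign. Me1 was too dim for the 60th percentile filter. Pgls stayed between -0.96 and -0.86, with unadjusted p from 0.0124 to 0.0647 and adjusted p from 0.979 to 1.

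Chosen after seeing the data, the sides of each list were counted without wild-type replicate 1. They were 3 higher and 7 lower for the members, and 2 and 4 for ribose and hexose phosphate genes. For the list of other supply genes, with its NAD-dependent enzymes, they were 5 and 4. For the list of NADPH users, with Tbxas1 in it, they were 3 and 4.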

Other observations

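G6pd2, an autosomal copy of G6pdx known from sperm-forming cells and chosen here after its values were seen, fell short of the brightness filter, with intensities of 258.3 and 267 in knockout and 319.8 and 342 in wild-type spleen. No value for G6pdx can be taken from it.

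Nnt lay below the floor of 185.5 in wild-type replicate 1, at 61.1, and with that value raised to the floor the lowest of the other 3 arrays was at least 5.98-fold higher. A deletion in Nnt is known in the C57BL/6J substrain. The labels give the background as C57B6 mixed with other strains, and the Nnt genotype of these animals was not tested.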
